A study of Mus musculus with 3 samples.

Results

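miR-210 is the microRNA most widely known as a target of the hypoxia-inducible factors (HIF), and both of its mature arms, miR-210-3p and miR-210-5p, had a spot on the arrays, 2 of 1265 microRNA features. It was chosen by its measured value, as a HIF target among the largest falls on the array of drug-treated organoids, so the difference between treated and untreated tumour organoids is given below as a description. Members were all features whose name begins with mmu-miR-210-, and no spot of either arm was marked as bad at any scanner gain on any array. The study profiled mouse intestinal organoids, which are epithelial structures grown in Matrigel from intestinal stem cells, on 3 single-colour arrays. One array carried normal organoids of wild-type mice and another untreated organoids grown from intestinal tumours of ApcMin mice, whose germline has a truncating mutation in the tumour suppressor Apc. On the last were ApcMin tumour organoids exposed to 1 uM 5-Aza-CdR, also called decitabine, which blocks DNA methyltransferases. All cultures received R-spondin 1, EGF and Noggin without serum. The sources used here do not state how many mice or organoid lines went into an array, how long the drug was given, the age of the mice or the oxygen level of the cultures. Each group had 1 array, so no value has a replicate, no p-value is given, and culture, array and group cannot be told apart.

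When oxygen is scarce, the alpha subunit of HIF-1 escapes the prolyl hydroxylases that mark it for destruction. In the nucleus it pairs with its partner ARNT and switches on genes for glycolysis, blood vessel growth and survival, miR-210 among them. The leading arm, miR-210-3p, represses messengers such as those of the iron-sulphur cluster scaffold ISCU, the ephrin EFNA3 and the enzyme GPD1L. Through ISCU it damps mitochondrial respiration. miR-210 is often reported as raised in human tumours, colorectal ones included.

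The mature arms are printed because each has its own spot and is described separately below. They are from RefSeq on GRCm38.p6, in lower case with the seed (bases 2 to 8, which pair with target messengers) in capitals.
miR-210-3p: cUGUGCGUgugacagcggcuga
miR-210-5p: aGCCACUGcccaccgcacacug
Both are cut from 1 hairpin of 110 bases, encoded on the minus strand at chr7:141221384-141221493. In the hairpin the capitals mark the 5p arm (bases 28 to 49) and then the 3p arm (bases 66 to 87).
Mir210 hairpin: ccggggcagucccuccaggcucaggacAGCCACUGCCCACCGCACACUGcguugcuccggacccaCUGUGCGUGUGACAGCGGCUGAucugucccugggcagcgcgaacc

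No gene of the RefSeq table overlaps Mir210, and the nearest ones are the protein-coding Rassf7 at a distance of 2726 bases and Gm51460 and Phrf1 at 6713 and 6984 bases on the other side. Of 1679 mature microRNA names in RefSeq's mouse set, 0 others share the seed of miR-210-3p and 0 share that of miR-210-5p. Among 1028 sequences that the arrays also name, the longest run that any has in common with miR-210-3p is 8 bases (miR-293-5p, miR-3067-3p and miR-542-3p), and with miR-210-5p it is 9 bases (let-7g-3p and miR-324-3p). Cross-hybridisation was not tested, as the letters of the probes themselves were not used here. Both arms are rich in G and C, at 63.6% for miR-210-3p and 68.2% for miR-210-5p.

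The treated array was the dimmest of the 3, while microRNA and blank spots were brighter on the tumour than on the wild-type array and the spiked-in controls were not. Spots without probe (blanks) had a trimmed mean of 27.3, 29.5 and 22.7 on the arrays of wild-type, untreated tumour and treated tumour organoids, the median microRNA spot read 33, 37.4 and 27.6, and the first spiked-in control read 8030 ± 464, 7950 ± 801 and 5010 ± 339 (SD of 8 spots). Signals above blank are therefore followed below by normalized values. A feature was called detected above the blank mean plus 2 SD, which 954, 959 and 914 features passed, and 375 lay above every negative control spot on all 3 arrays. Epithelial microRNAs were bright throughout, with the 5 probes of the miR-200 family between 439 and 1340 above blank in wild-type, 593 and 1520 in tumour and 442 and 1130 in treated organoids. Of 4 markers of other cells, miR-223-3p of blood cells alone was brighter than the negative controls on all arrays, at 20.7, 41.9 and 18.2, while miR-143-3p and miR-145a-5p of smooth muscle and fibroblasts and miR-451a of red cells were not on any.

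miR-210-3p stood well above background on every array. Above blank it read 345 in wild-type organoids, 489 in untreated tumour organoids and 168 in treated tumour organoids. These values are 22.3, 20.8 and 10.7 times the signal above blank of the brightest negative control on the same arrays. In order of brightness it ranked 87th, 92nd and 130th among the microRNA spots of its array. The treated array was the lowest of the 3, and the other two lay closer together. miR-210-3p held 0.117% of all signal from detected microRNAs in wild-type and 0.117% in tumour organoids, but 0.0589% after treatment.

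miR-210-5p, the passenger arm in most tissues, was dimmer on its own probe, though detected everywhere and 2.97, 3.23 and 3.14 times as far above blank as the brightest negative control. Its signals above blank were 46 in wild-type, 76.1 in tumour and 49.2 in treated organoids. Here the untreated tumour array was the highest and the other two were close to each other. Its share of detected signal was 0.0155%, 0.0182% and 0.0172%, in the same order. Levels are not compared between the arms, because different probes bind with different strength.

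**Figure D1:**
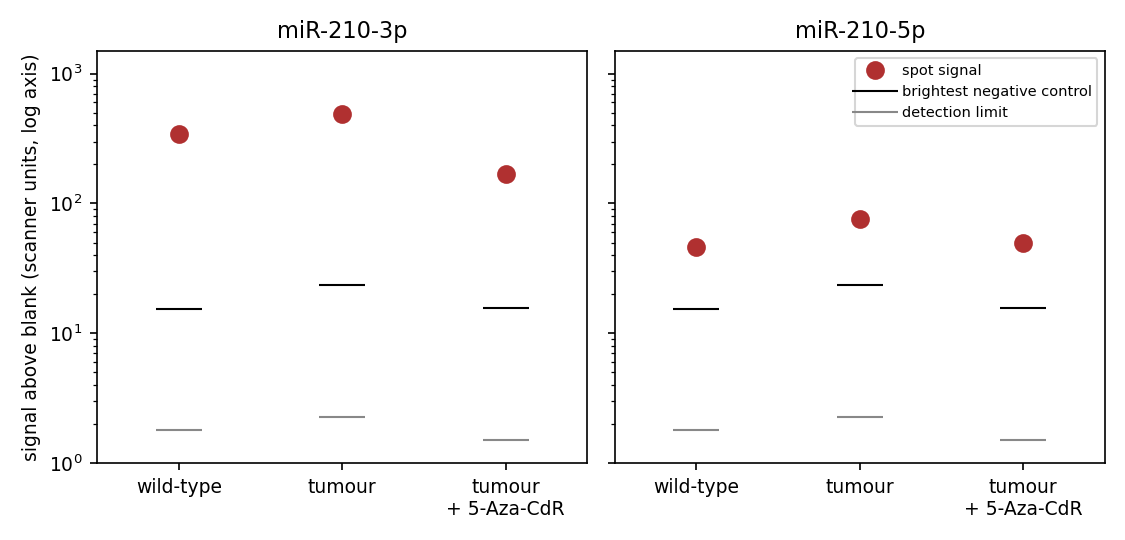
Signal above blank (scanner units, log axis) of miR-210-3p and miR-210-5p on the 3 arrays, with the detection limit and the brightest negative control of each array as short lines. Points are single spots; miR-210-3p reads 345, 489 and 168 and miR-210-5p reads 46, 76.1 and 49.2, all above both lines.

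For comparison between arrays, signals were corrected with the blank spots, an offset of 50 was added and the arrays were quantile normalized on the log2 scale. The normalized log2 level of miR-210-3p was 8.8 in wild-type, 8.69 in tumour and 7.92 in treated organoids. Treated tumour organoids were lower than untreated ones by a log2 difference of -0.77, or 1.7-fold, and lower than wild-type organoids by -0.88, or 1.84-fold. Tumour organoids differed from wild-type ones by -0.11, or 1.08-fold. Repeated spots exist for controls alone, none of them near miR-210-3p in brightness. The spiked-in controls, at 4980 to 9510 above blank, had a median SD of 0.0969 on the log2 scale over 6 sets of 8 spots, one set for each control and array. The other 9 control kinds, also with 8 spots each, lay at 32 above blank or lower, and their SDs ran up to 2.8. Neither kind measures differences between cultures, extractions and hybridisations, so none of the gaps is read against them.

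The normalized log2 levels of miR-210-5p were 6.73 in wild-type, 6.74 in tumour and 6.72 in treated organoids, with differences of 0.01 for tumour against wild type and -0.02 for treated against untreated tumour. Its signals are close in size to the offset of 50, which draws such differences towards 0. With an offset of 16 they were 0.02 and -0.02, and with the blank mean subtracted and no offset 0.03 and -0.04, so the 3 levels stayed close to one another in these settings. Over all settings the difference ran from -0.03 to 0.40 for tumour against wild type and from -0.27 to 0.41 for treatment, and no direction is given for either.

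Neither arm reached a 2-fold difference in any comparison with this normalization. In treated against untreated tumour organoids, 0.0985% of 1015 features (1) were higher by 2-fold or more and 0.0% (0) were lower by as much. At 1.5-fold, 0.493% were higher and 0.69% lower, and 1 of the 2 arms, miR-210-3p, was among the 7 lower ones. Because that contrast chose the microRNA, nothing is read from this count. In tumour against wild-type organoids, 1.25% of 1040 features were higher by 2-fold or more and 1.25% lower, 2.79% and 3.27% passed 1.5-fold in each direction, and neither arm was among them. In treated tumour against wild-type organoids, 1.17% of 1027 features passed 2-fold upwards and 1.27% downwards. At 1.5-fold, 2.73% were higher and 3.51% lower, and miR-210-3p was among the lower ones. This comparison shares the treated array by which the microRNA was chosen, so nothing is read from this count either. That call was lost with spiked-in control scaling, at -0.36. The median of features detected on all arrays was 0.53 there, and miR-210-3p was at -0.89 against that median. With the background column of the files miR-210-3p was at 0.22. Its spot was dimmer than that column on every array, so that value gives no direction.

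The differences were then set beside those of the 100 features nearest to miR-210-3p in mean brightness over the 3 arrays, all detected on each. In treated against untreated tumour organoids these 100 had a median log2 difference of 0.03, with 90% of them between -0.49 and 0.52 and the lowest at -0.69. miR-210-3p, at -0.77, lay below all 100. Among all 1015 features compared it was the 2nd lowest, after miR-6412 at -0.80. Both places follow from the choice of the microRNA by this contrast, and nothing is read from them. In tumour against wild-type organoids the 100 features spread more widely, with 90% between -0.89 and 1.14, and miR-210-3p lay in the middle of them, with 42 lower and 58 higher. In treated tumour against wild-type organoids, which share the treated array that chose the microRNA, 6 of the 100 were lower than miR-210-3p and 94 higher. For miR-210-5p, the 100 features nearest to it in brightness included 51 with a lower and 49 with a higher difference between treated and untreated tumour organoids, a place in the middle.

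**Figure D2:**
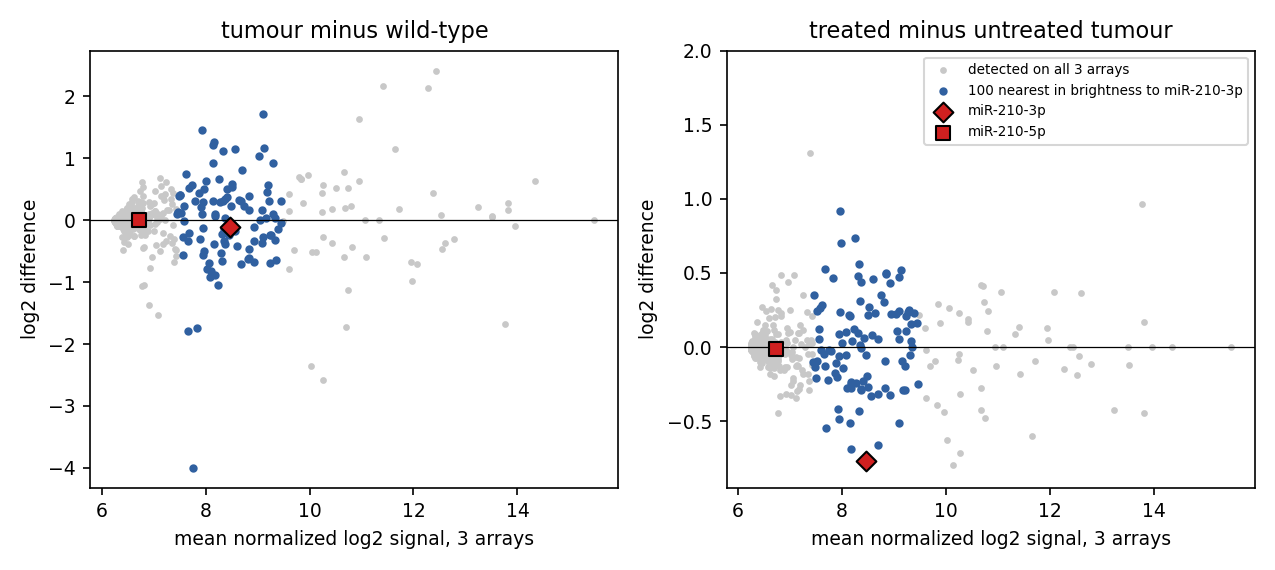
Log2 difference (vertical) against mean normalized log2 signal (horizontal) for the 817 features detected on all 3 arrays, for tumour minus wild-type (left) and treated minus untreated tumour organoids (right). The 100 features nearest to miR-210-3p in brightness are blue. In the right panel, whose comparison chose the microRNA, miR-210-3p, at -0.77, lies below all of them. In the left panel, at -0.11, it lies among them.

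Because both arms come from 1 hairpin and were read on the same arrays, the change of one arm can be set against the change of the other without any scaling between arrays. This comparison was added after the values of both arms had been seen. From untreated to treated tumour organoids, unscaled signal above blank was 2.91-fold lower for miR-210-3p and 1.55-fold lower for miR-210-5p, log2 ratios of -1.54 and -0.63. The treated array was dimmer as a whole: over the other 50 microRNAs with both arms brighter than the negative controls on all arrays, the median log2 ratio was -0.69 for 3p and -0.66 for 5p arms. Of 50 other 5p arms, 26 had a lower ratio than miR-210-5p. Of 50 other 3p arms, 0 had a lower ratio than miR-210-3p, a place that follows from its choice by this contrast. The gap between the arms of miR-210 was -0.91, against -0.81 to 1.09 for the other 50 with a median of -0.11, and miR-25 alone had a gap as far from 0, in the other direction. The gap rests on the contrast that chose the microRNA, on 1 spot per arm and array and on the blanks as background. Nothing is read from its size or place. With the background column of the files the normalized differences were 0.22 for miR-210-3p and -0.16 for miR-210-5p. The miR-210-3p spot was dimmer than that column on every array, so the arms cannot be compared with it.

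Between wild-type and tumour organoids the arms moved more alike. Unscaled signal was 1.41-fold higher in tumour organoids for miR-210-3p and 1.66-fold higher for miR-210-5p, a gap of -0.22 on the log2 scale, and 39 of the other 50 microRNAs had a gap at least as far from 0. The medians of the other 3p and 5p arms were 0.89 and 0.71, against log2 ratios of 0.50 and 0.73 for the arms of miR-210. Between wild-type and treated tumour organoids the gap was -1.14, from a 2.06-fold lower 3p and a 1.07-fold higher 5p signal, and 3 of 50 others had one at least as far from 0. That gap rests on the same treated array by which the microRNA was chosen.

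**Figure D3:**
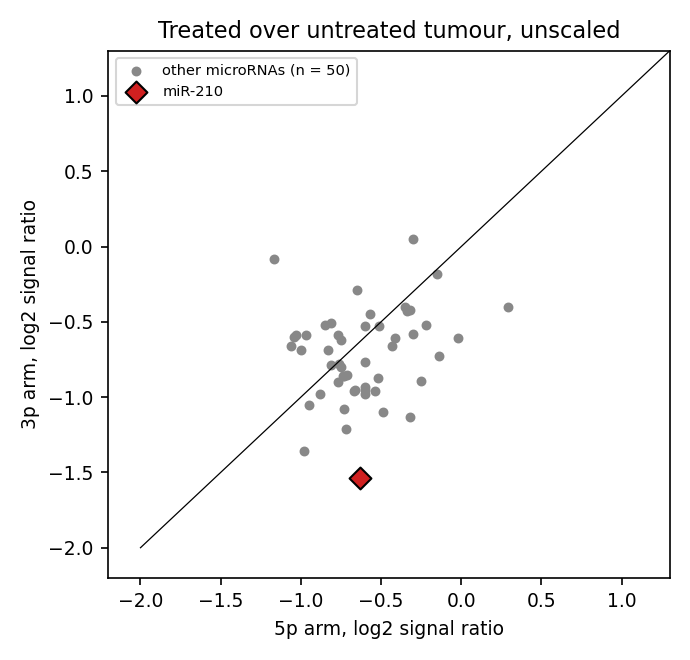
Unscaled log2 ratio of signal above blank in treated over untreated tumour organoids, 3p arm (vertical) against 5p arm (horizontal), for 51 microRNAs with both arms brighter than the negative controls on all arrays. The line marks equal ratios. In this comparison, which chose the microRNA, miR-210 lies furthest below it, at -1.54 for 3p and -0.63 for 5p.

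The size of the miR-210-3p difference depended on the scale, and with the background column of the files no direction could be read. Between treated and untreated tumour organoids it was -0.86 with an offset of 16, -0.89 with the blank mean subtracted, -0.81 scaled to the spiked-in controls and -1.14 in the authors' values. Scaling by medians gave -1.26 over features detected on all arrays and -1.35 over every feature. The last 3 are past 2-fold. The median of features detected on all arrays was itself -0.26 in the authors' values and 0.28 with the spiked-in controls. Against these medians miR-210-3p was at -0.88 and -1.09. The authors' values themselves were 739 in wild-type, 773 in tumour and 350 in treated organoids. The files also have a background column for each spot, and how it was measured is not given in the sources used here. With that column as background the difference was 0.22. For miR-210-3p the column read 455, 683 and 216 in wild-type, tumour and treated organoids, above the spot's own 373, 519 and 191, so no signal was left to compare. Of the 817 features detected on all arrays 14 had such a spot on all of them (1.71%), and miR-210-5p, at 62, 79.4 and 59.8 against spots of 73.3, 106 and 71.8, was not among them. Between tumour and wild-type organoids the miR-210-3p difference changed sign, from -0.26 with the median of all features to 0.45 with the spiked-in controls, where the median feature was also 0.25 higher, and 0.06 in the authors' values. The order of steps mattered here too. The 3 scalings were first computed as a shift of the log2 values after the offset was added, and were redone as 1 factor per array before the offset once those values had been seen. The first order gave 0.16 with the median of features detected on all arrays and 0.19 with that of every feature, where the redone order gave -0.22 and -0.26, and it gave 0.46 with the spiked-in controls. No direction is given for that comparison. For treatment the first order gave -1.33, -1.38 and -0.70.

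**Figure D4:**
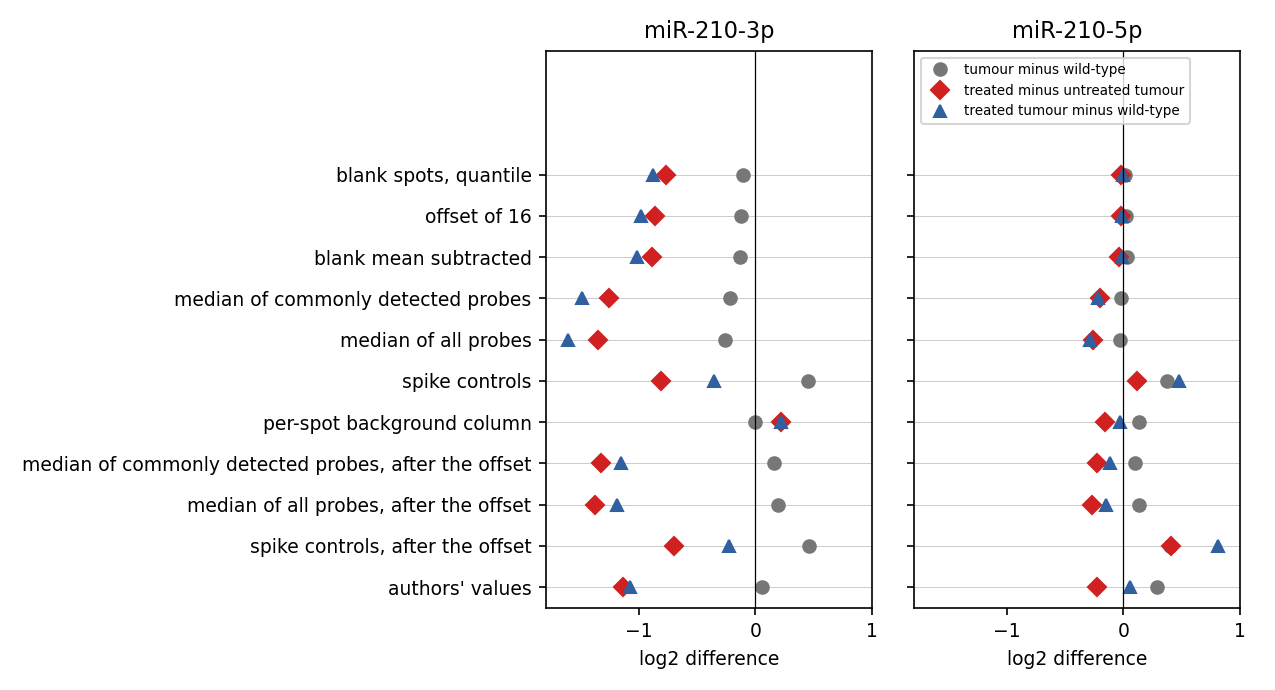
Log2 differences of miR-210-3p (left) and miR-210-5p (right) under each processing setting, for the 3 comparisons between arrays. Treated minus untreated tumour runs from -1.38 to -0.70 for miR-210-3p except at 0.22 with the background column of the files, and tumour minus wild-type falls on both sides of 0.

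A list of microRNAs that hypoxia raises in cultured cells was set beside miR-210-3p, with quantile-normalized differences unless stated. It was chosen with earlier results of these data known, so its counts are given as a description. Of 17 listed, all detected, 12 were higher and 5 lower in treated than in untreated tumour organoids, with a median of 0.08, against a median of 0.0 and 44.6% higher over all 1015 features. Past 1.5-fold there was 1 in each direction, beside 0.493% of all features higher and 0.69% lower. miR-27a-3p was the higher one, at 131 above blank in wild-type, 345 in tumour and 371 in treated organoids and a normalized difference of 0.74, which was 0.05 with the median of every feature and -0.14 with the per-spot background. miR-192-5p, which is also a marker of the intestinal epithelium, was the lower one, at 2210, 800 and 347 and a difference of -0.63, or 0.24 with the per-spot background. Its relatives by locus or seed on the epithelial list, miR-194-5p and miR-215-5p, were at -0.72 and -0.02. miR-21a-5p, an oncogenic microRNA, was at 0.42, and miR-23a-3p and miR-23b-3p, which lie in clusters with miR-27 and miR-24, were at 0.52 and 0.48. In the same order they were at -0.10, 0.01 and -0.13 with the median of every feature. With the spiked-in controls they were at 0.59, 0.67 and 0.53. The count of higher members moved with the scale. It was 7 of 17 with the median of features detected on all arrays and 4 of 17 with that of every feature. With the spiked-in controls it was 14 of 17. The median of features detected on all arrays was 0.01, -0.04 and 0.28 in these settings, and the share of all features higher is not given for them. No direction is given for the list. miR-210-3p was lower than each of the 17 in treated against untreated organoids with the quantile scale. As that contrast chose the microRNA, nothing is read from its place.

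In tumour against wild-type organoids 9 of the 17 were higher and 8 lower, with a median of 0.01, against a median of 0.0 and 51.9% higher over all 1040 features. Past 1.5-fold there were 4 in each direction, beside 2.79% of all features higher and 3.27% lower. The higher ones were miR-23b-3p (1.72), miR-23a-3p (1.16), miR-24-3p (0.93) and miR-27a-3p (0.67). The lower ones were miR-192-5p (-2.36), miR-107-3p (-0.89), miR-103-3p (-0.83) and miR-26a-5p (-0.63). With the background column of the files the sign turned for miR-23b-3p (-0.96), miR-23a-3p (-0.51), miR-192-5p (0.25), miR-103-3p (0.14) and miR-26a-5p (0.20). With spiked-in control scaling miR-107-3p (-0.40), miR-103-3p (-0.32) and miR-26a-5p (-0.14) were no longer past 1.5-fold, and with the median of every feature miR-27a-3p (0.51) was not. Between them lay miR-210-3p at -0.11. miR-103 and miR-107, which target Dicer among others, and miR-26a and miR-26b each share a seed, and their sequences are shown because members this alike may share signal on an array.
miR-103-3p: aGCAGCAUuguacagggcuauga
miR-107-3p: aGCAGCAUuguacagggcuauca
miR-26a-5p: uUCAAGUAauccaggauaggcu
miR-26b-5p: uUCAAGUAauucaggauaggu
The dim members of the list were miR-322-5p, under the negative controls on all arrays, and miR-155-5p and miR-195a-5p, above them on 1 array each. With the offset of 50 their differences are held near 0.

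A second list held 9 microRNAs that target the HIF pathway itself, 7 against Hif1a, 1 against its partner Arnt and 1 against the inhibitor Hif1an. This list too was chosen with earlier results of these data known, so nothing is read from its counts. In treated against untreated organoids 5 of 9 were higher with a median of 0.03, against 44.6% of all 1015 features, and 1 was higher by 1.5-fold, against 0.493%. It was miR-22-3p, a repressor of HIF-1 alpha in human colon cancer cells, at 88.3, 90.4 and 212 above blank and a normalized difference of 1.31, while miR-31-5p, which targets the HIF-1 inhibitor, was at 0.49. Over the settings miR-22-3p stayed above 0, from 0.63 to 1.86, and miR-31-5p did not, with -0.17 at its lowest. In tumour against wild-type organoids 3 of 9 were higher and 6 lower, with a median of -0.48, against 51.9% of all 1040 features higher, and 3 were lower by 1.5-fold, against 3.27%. These were miR-107-3p, miR-20a-5p (-0.69) and miR-20b-5p (-0.61), the last 2 of the miR-17 group. With spiked-in control scaling none of these 3 was past 1.5-fold, at -0.40, -0.27 and -0.14, and miR-20a-5p was at 0.02 with the background column. The list's median for tumour against wild type was -0.14 with the spiked-in controls and -0.02 with the per-spot background, and that for treatment turned to -0.30 and -0.38 with the median scales.

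**Figure D5:**
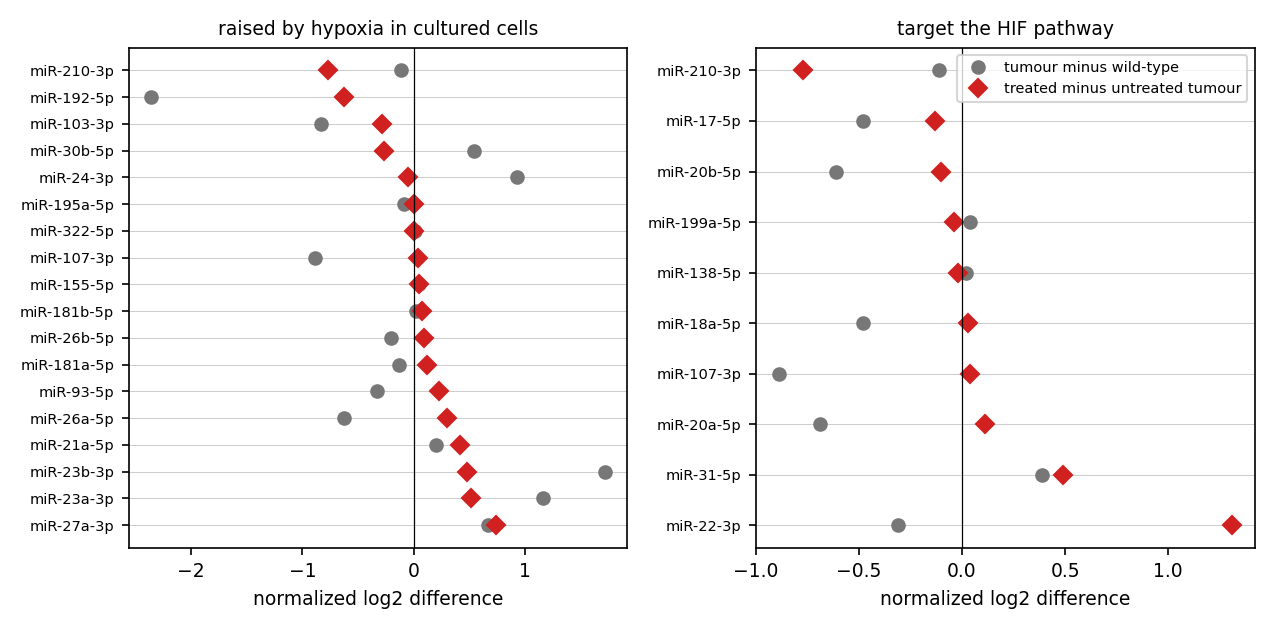
Normalized log2 differences of the 17 microRNAs raised by hypoxia in cultured cells (left) and the 9 that target the HIF pathway (right), each with miR-210-3p in the top row, for tumour minus wild-type (circles) and treated minus untreated tumour organoids (diamonds). In the treatment comparison, by which miR-210 was chosen, miR-210-3p, at -0.77, is the lowest of both panels and miR-22-3p, at 1.31, the highest.

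The microRNAs most like miR-210-3p in both differences together were sought among the 375 features brighter than the negative controls on all arrays. Likeness was the distance in the plane of the 2 log2 differences, which share the untreated tumour array. Nearest were miR-1902 (distance 0.36), miR-6412 (0.40), miR-6349 (0.41), miR-3968 (0.43) and miR-6351 (0.44). Signals above blank of miR-1902 were 647, 665 and 307 in wild-type, tumour and treated organoids, those of miR-6412 were 1370, 1490 and 564, and those of miR-6349 were 186, 312 and 137. Their likeness follows from this choice, and nothing is read from it. Their sequences are shown for comparison of the seeds, of which no 2 are the same and none is that of miR-210.
miR-1902: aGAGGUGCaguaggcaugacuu
miR-6412: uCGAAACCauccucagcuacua
miR-6349: uGGAAUGUgggaggggcaugcg
miR-3968: cGAAUCCCacuccagacacca
miR-6351: uAGCGUUGcucagggagcacaug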

How the data were processed

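Per the labels' protocols, a mirVana kit yielded the RNA of the 3 cultures and Hy5 was the dye. Per the file headers, the deposited intensity of a spot is its median at 635 nm, combined from 3 scanner gains without background subtraction. The authors' table holds an intensity that, from the values, is the spot median less the blank mean times 1 factor per array, so that each array's median is 25. The sources used here do not state the scanner software.

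limma 3.58.1 in R 4.3.3 corrected the signal by normexp with the mean and SD of the 1664 blank spots, added an offset of 50 and quantile normalized the 1265 features; 2 flagged features of the wild-type array were left out. The detection limit used blanks trimmed by 5% at each end. Median and spike scaling applied 1 factor per array before the offset; this order was settled after the values of the other order had been seen, and the closing section gives both. The steps were tested on simulated data, with the brightness range of the dim simulated features widened because too few lay in the first one. Results are log2 differences of the deposited intensity after these steps. With 1 array per group nothing was tested for significance, and the number of arrays limits the precision. Named were both arms, the members of the hypoxia, HIF and cell marker lists and the 5 most alike features; miR-25 is named outside this rule, after its value was seen, and so are the microRNAs with the longest shared sequence runs. miR-210 and the lists were chosen with earlier results of these data known. The comparison of the arms was added after their values were seen. Alternatives were those of the closing section. Tables and figures came from Python 3.11.15 with matplotlib 3.10.9, scipy 1.17.1, pandas 2.3.3 and numpy 2.4.6. RefSeq tables of GRCm38.p6 gave sequences and gene positions.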

Additional observations from a re-analysis of the deposited data

How the results depend on the processing

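No paired analysis was possible because each group has 1 array. Single scanner gains were not run, since each spot has 1 combined value. Values are in the order tumour against wild type, treated against untreated tumour and treated tumour against wild type. For miR-210-3p, median scaling over commonly detected features gave -1.26 and -1.49 in the last 2, over all features -0.26, -1.35 and -1.61, spike scaling 0.45 in the first and -0.36 in the last, the authors' values 0.06, -1.14 and -1.08, and blank subtraction -1.02 in the last. The per-spot background column gave 0.22 in the last 2, where the spot was dimmer than that column on every array. The share of like-bright features lower than miR-210-3p (42.0%, 0.0% and 6.0%) became 60.0%, 65.0% and 72.0% with that column. It ran from 38.5% to 48.0%, 0.0% to 0.5% and 6.0% to 7.0% with 50 or 200 neighbours, brightness on 1 array or the authors' values. For miR-210-5p, spike scaling gave 0.37 in the first and 0.48 in the last, the authors' values 0.29 and -0.23 in the first 2, commonly detected features -0.20 and -0.22 and all features -0.26 and -0.29 in the last 2, and the per-spot column -0.16 for treatment. Scaling after the offset, the order computed first and kept as an alternative added after seeing the data, gave miR-210-3p 0.16, -1.33 and -1.16 with commonly detected features, 0.19, -1.38 and -1.19 with all features, and 0.46 in the first and -0.23 in the last with spikes. It gave miR-210-5p -0.23 for treatment with commonly detected features, -0.27 and -0.15 in the last 2 with all features, and 0.40, 0.41 and 0.81 with spikes.

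The shares of features at least 2-fold higher and lower were 1.25% and 1.25%, 0.0985% and 0.0%, and 1.17% and 1.27%. They became 9.9% and 8.75%, 6.21% and 6.31%, and 10.6% and 10.8% with the blank mean subtracted, where no offset damps dim features. They were 6.3% and 4.01%, 1.05% and 3.95%, and 4.64% and 7.14% in the authors' values, and 3.37% and 0.769%, 0.197% and 0.0%, and 3.8% and 0.292% with spikes. The per-spot column gave 1.92% and 2.12%, then 2.17% and 2.17%, in the first 2. In the last 2, commonly detected features gave 0.0% and 0.887%, then 0.584% and 4.67%, and all features 0.0% and 1.67%, then 0.389% and 5.84%. At 1.5-fold the shares were 2.79% and 3.27%, 0.493% and 0.69%, and 2.73% and 3.51%. An offset of 16 gave 0.197% higher for treatment. Scaling after the offset gave 0.0% and 1.08%, then 0.682% and 2.34%, with commonly detected features in the last 2; 0.0% and 1.67%, then 0.682% and 2.34%, with all features; and 3.37% and 0.769%, 0.197% higher, and 7.4% and 0.292% with spikes. The cause of the other shifts was not tested.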
